A study of Homo sapiens with 6 samples.

Results

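The genes described here are 53 components of Wnt signalling: ligands, the enzymes and carriers that release them, receptors, extracellular inhibitors, regulators of receptor turnover, cytoplasmic transducers and the TCF/LEF transcription factors. They were taken by gene symbol from a list, and all 53 were among the 54628 genes of the count files. The RNA came from U87 cells, a long-established human glioblastoma line, recovered from a co-culture by fluorescence-activated sorting. The series title names astrocytes as the source of shuttled mitochondria. One group holds 3 libraries of cycling U87 cells that received mitochondria (received) and the other holds 3 libraries of cycling U87 cells that did not (not received). No drug, genotype or time point is given for either group, and the labels do not say how a cell was judged to be cycling or to have received mitochondria. All libraries share the same line and the same co-culture setting. The labels do not say that replicates were separate cultures, so p-values describe the spread between these libraries, which may be technical.

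Wnt ligands are secreted lipid-modified proteins. In the producing cell PORCN attaches the lipid and WLS carries the ligand to the surface. In the canonical branch a Wnt protein joins a Frizzled receptor to the co-receptor LRP5 or LRP6, Dishevelled proteins are recruited, the destruction complex built on AXIN, APC and GSK3B stops degrading beta-catenin, and beta-catenin activates genes together with TCF/LEF factors. In the other branches ligands such as WNT5A signal through Frizzled, ROR and RYK receptors to the cytoskeleton and to calcium, and WNT5A has been linked to invasion in glioblastoma. Several outputs of the canonical branch, among them AXIN2, NKD1, RNF43, ZNRF3, NOTUM and DKK1, act back on the pathway as inhibitors.

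In cells that received mitochondria, 3 Wnt genes rose and 9 fell. The ligand WNT5A, the receptor RYK and the R-spondin receptor LGR4 were higher. The Frizzled receptors FZD1, FZD2 and FZD7, the acyltransferase PORCN, the inhibitors DKK1, KREMEN1 and NOTUM, the ubiquitin ligase RNF43 and the transcription factor TCF7 were lower. The changes ran from a log2 fold change of -1.25 (RNF43) to 0.45 (WNT5A), all fold changes being received over not received. Of the 53 genes 37 had enough counts to be tested, so 12 of 37 were called, 32.4% against 18.9% of all genes tested. The members were chosen with earlier results of these data known, so the shares are descriptions and not a test of the list. A call here is an edgeR quasi-likelihood result whose p, adjusted over all genes tested with Benjamini-Hochberg, was below 0.05. By direction, 3 calls higher stand beside a background of 9.21% of all genes and 9 calls lower beside 9.67%. The ranges of the groups were apart in 16 of the 37 genes, 3 higher and 13 lower, where 39.0% of all genes tested did not overlap (19.5% in each direction). The median log2 fold change was -0.11 over the 37 genes and 0.00 over all genes tested. In RNA from a bulk of sorted cells, fewer cells expressing a gene and less RNA per cell cannot be told apart.

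**Figure D1:**
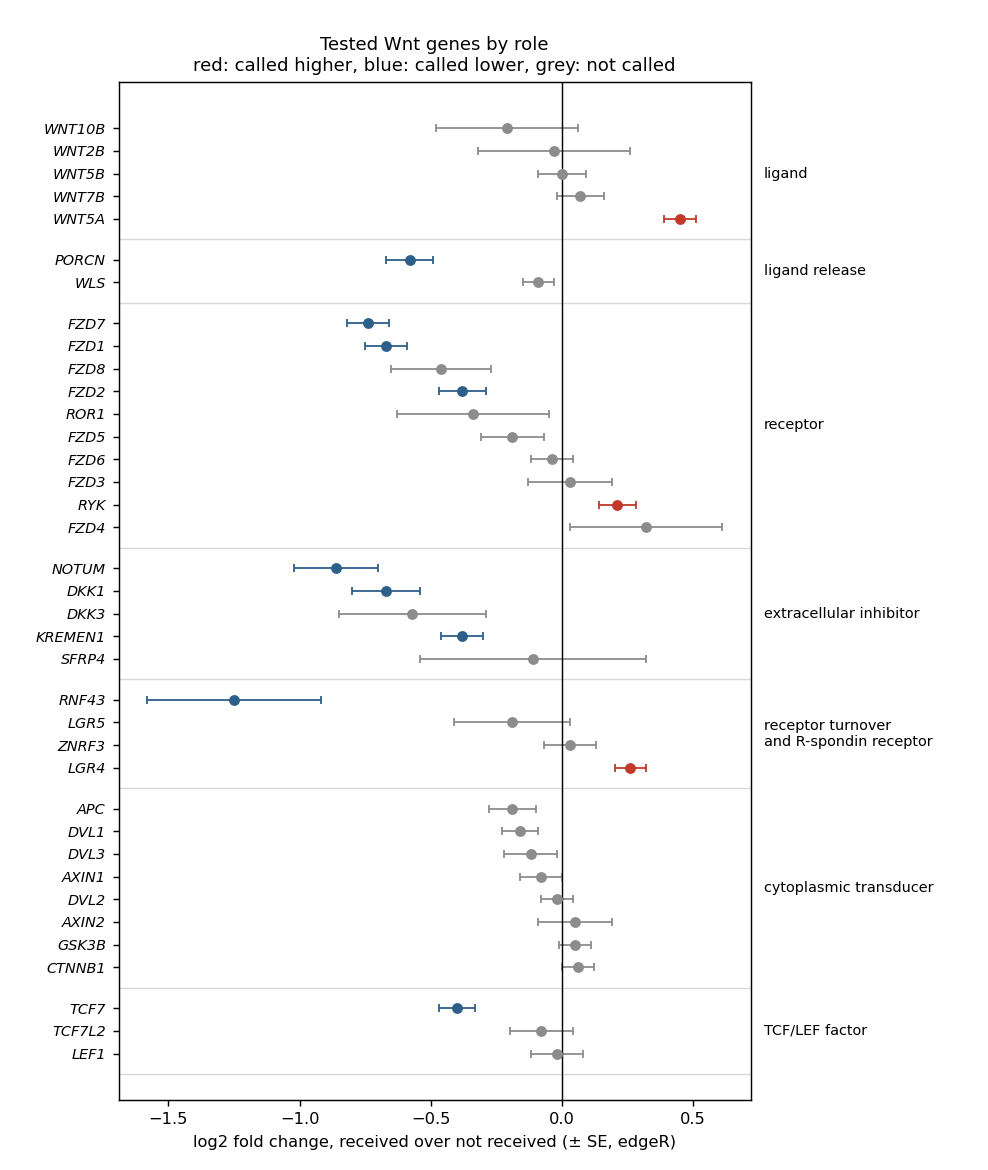
Log2 fold change (received over not received, ± SE from edgeR) of the 37 tested Wnt genes, grouped by role on the vertical axis. Red points were called higher, blue points lower and grey points were not called; the 3 calls higher fall in 3 different roles, while the 8 tested cytoplasmic transducers all lie between -0.19 and 0.06.

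The libraries held 17879552 to 46392491 counts, and the 53 genes together took 0.183% to 0.192% of each. The deepest library was not-received replicate 2, and without it all 12 calls remained and the transducer DVL1 was added to the lower genes. All 10 genes of a glioblastoma line list were detected, at a summed 13990 to 14349 CPM (counts scaled to a common library total) in received and 13801 to 14390 CPM in not-received libraries (exact permutation p = 0.9). That sum adds genes called in opposite directions: NES (log2 fold change 0.46) and VIM (0.26) rose, CHI3L1 (-0.90), CD44 (-0.23) and CAV1 (-0.21) fell, and the other 5 were not called. Of 14 astrocyte markers AQP4, ALDH1L1 and GJB6 had 0 counts everywhere and GFAP had 4 to 13 counts. The summed level of that list was 437 to 471 CPM in received and 377 to 427 CPM in not-received libraries (two-sided exact permutation test, p = 0.1, the lowest value possible with 3 libraries a group), most of it from GJA1 (283 to 307 against 213 to 253 CPM). The list of 12 macrophage and microglia markers summed to 494 to 509 against 370.3 to 410.0 CPM (exact permutation p = 0.1), nearly all of it CD68 (472 to 488 against 349 to 389.7 CPM), with AIF1, CX3CR1, P2RY12 and TYROBP at 0. Lymphocyte markers summed to under 2 CPM in every library, with 5 of 9 at 0, and endothelial markers to 32.8 to 34.1 against 25.6 to 33.4 CPM (exact permutation p = 0.6 and 0.3). The part of carried-over cells in the Wnt results was not tested beyond these levels.

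For the called genes with an entry in a RefSeq table of promoters (assembly GRCh38.p14, 250 bases before to 50 after a start), 4 windows are shown. They were picked because they carry the ligand that rose, a receptor that fell and the only matches to the form of the TCF/LEF core searched. The sequence searched was CTTTGA or its reverse complement TCAAAG, and a match is printed in capitals. Other forms of the core, such as the CTTTGT present in the DKK1 and FZD1 windows, were not searched and are not marked. The table holds windows for 36 of the 53 genes and for 8 of the 12 called ones. A match occurred in 2 of the 36 genes (5.56%), DKK1 and PORCN, and in 15.5% of all gene symbols in the table. The DKK1 window holds TCAAAG beginning 149 bases and CTTTGA beginning 95 bases before the start. PORCN has more than 1 window, and the one shown holds CTTTGA beginning 9 bases before its start. The windows of WNT5A and FZD1 have no match. Such matches describe letters and do not show that a factor binds.
WNT5A, chr3:55487257-55487556, minus strand: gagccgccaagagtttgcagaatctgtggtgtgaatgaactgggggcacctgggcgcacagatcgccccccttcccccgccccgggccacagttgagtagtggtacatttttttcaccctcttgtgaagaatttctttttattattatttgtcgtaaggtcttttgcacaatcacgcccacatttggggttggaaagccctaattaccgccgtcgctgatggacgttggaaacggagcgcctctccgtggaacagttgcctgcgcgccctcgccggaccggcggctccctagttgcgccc
FZD1, chr7:91264183-91264482, plus strand: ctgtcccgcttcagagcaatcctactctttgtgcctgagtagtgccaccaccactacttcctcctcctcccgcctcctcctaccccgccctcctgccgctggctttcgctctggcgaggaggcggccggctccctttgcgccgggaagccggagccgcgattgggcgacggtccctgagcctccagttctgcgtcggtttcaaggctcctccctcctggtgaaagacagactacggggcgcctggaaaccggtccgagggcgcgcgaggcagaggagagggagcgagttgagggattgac
DKK1, chr10:52314031-52314330, plus strand: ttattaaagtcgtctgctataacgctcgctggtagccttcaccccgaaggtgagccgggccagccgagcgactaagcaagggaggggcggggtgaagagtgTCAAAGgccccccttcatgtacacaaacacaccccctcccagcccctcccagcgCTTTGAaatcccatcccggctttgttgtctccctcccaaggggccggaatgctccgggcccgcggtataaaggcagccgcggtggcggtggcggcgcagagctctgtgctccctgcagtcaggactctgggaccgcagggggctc
PORCN, chrX:48509534-48509833, plus strand: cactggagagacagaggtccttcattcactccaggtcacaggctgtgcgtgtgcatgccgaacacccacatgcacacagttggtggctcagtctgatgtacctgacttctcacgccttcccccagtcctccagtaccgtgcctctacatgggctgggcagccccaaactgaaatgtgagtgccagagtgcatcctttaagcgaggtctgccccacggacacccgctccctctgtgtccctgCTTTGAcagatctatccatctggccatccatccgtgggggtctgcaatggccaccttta

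To compare levels between genes, CPM were divided by the exon length of each gene in GENCODE 29, an approximation, since the annotation behind the counts is not known. WNT7B, at 39.5 CPM per kb in received and 37.6 CPM per kb in not-received cells, and WNT5A, at 25.4 and 18.6 CPM per kb, led the ligands, and WNT5B followed at 5.18 and 5.22 CPM per kb. The other 9 ligands each stood below 1 CPM per kb in every library. FZD2 was the leading Frizzled (15.2 and 19.8 CPM per kb). In not-received cells FZD7 (11.3 CPM per kb) came before FZD6 (9.47) and FZD1 (6.83), whereas in received cells FZD6 (9.22) came before FZD7 (6.71) and FZD1 (4.28). The libraries of FZD7 and FZD6 overlap in the not-received group and are apart in the received group. DVL1 had the highest level of all 53 genes, 60.9 and 68.0 CPM per kb, ahead of its paralogs DVL2 (16.9 and 17.1) and DVL3 (16.4 and 17.8), whose ranges over libraries overlap. DKK1 led the extracellular inhibitors (3.48 and 5.58 CPM per kb), LGR4 the R-spondin receptors (13.8 and 11.6) and TCF7 the transcription factors (4.84 and 6.38), the last ahead of LEF1 (2.65 and 2.68) and TCF7L2 (1.75 and 1.85).

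**Figure D2:**
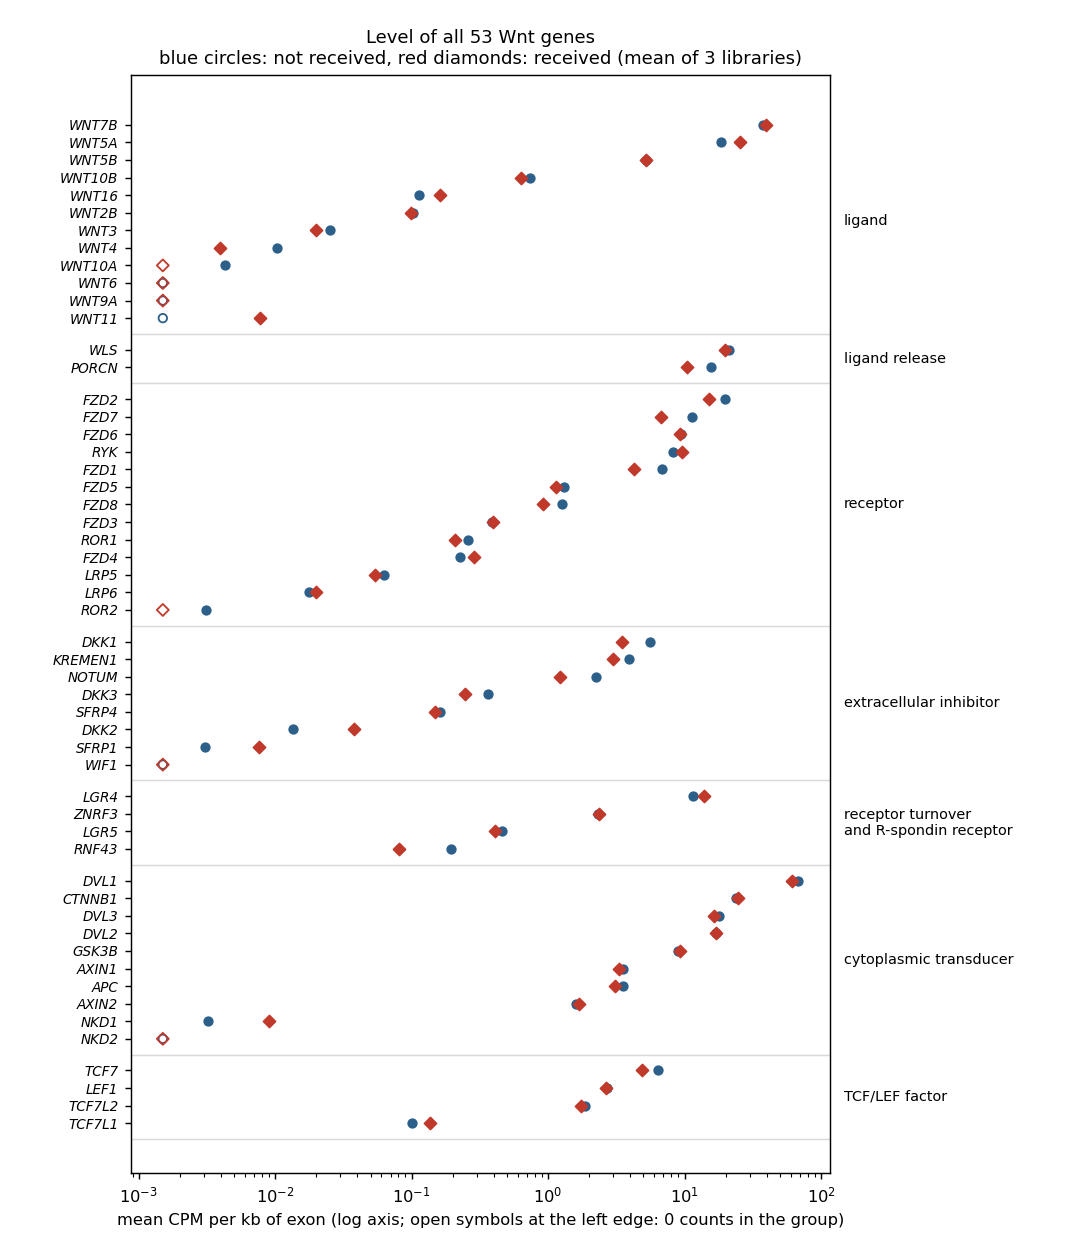
Mean level of all 53 Wnt genes in CPM per kb of exon on a log axis, in received (red diamonds) and not-received cells (blue circles), n = 3 libraries each; open symbols at the left edge mark a group with 0 counts. WNT7B, WNT5A and WNT5B stand above the other ligands, and LRP5 and LRP6 lie far below the Frizzled genes.

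The 16 genes left out of the test had few counts. WNT6, WNT9A, WIF1 and NKD2 had 0 counts in all libraries. A count of 3 corresponds to 0.0661 CPM in the deepest and 0.167 CPM in the shallowest library, which is the limit that a count of 0 allows, for counting error only. The other 12 (WNT3, WNT4, WNT10A, WNT11, WNT16, LRP5, LRP6, ROR2, DKK2, SFRP1, NKD1 and TCF7L1) had 1 to 74 counts over the 6 libraries together. LRP6, a co-receptor of the canonical branch, had 5, 2 and 5 counts with received mitochondria and 5, 6 and 3 without. LRP5 had 12, 3 and 5 against 14, 9 and 4 counts. Neither co-receptor exceeded 14 counts in any library. SCRIB, a polarity gene that most cells transcribe, also had 0 counts in all libraries, so a value at or near 0 in these files is not read here as absence of the messenger RNA.

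Among the ligands, WNT5A was the only one of 5 tested that was called, where 18.9% of all genes tested were called. It stood at 197, 179 and 189 CPM in the received libraries and at 134, 136 and 143 CPM in the not-received libraries. Every received library lay above every not-received one. WNT5A rose 1.37-fold, from 138 ± 4.56 to 188 ± 9.25 CPM (SD, n = 3; log2 fold change 0.45 ± 0.06 SE, edgeR adjusted p = 1.83e-04). WNT7B, a mostly canonical ligand, stood at 189, 183 and 226 CPM against 209.8, 188 and 171 CPM. These groups overlap (log2 fold change 0.07 ± 0.09, adjusted p = 0.636). WNT5B, the closest paralog of WNT5A, stood at 22.3 ± 0.578 and 22.5 ± 2.40 CPM (log2 fold change 0.00 ± 0.09). WNT10B and WNT2B, at 1.01 to 2.22 CPM, had log2 fold changes of -0.21 ± 0.27 and -0.03 ± 0.29. A gene antisense to WNT5A, WNT5A-AS1, has no entry among the counted genes under that symbol. The sources used here do not say whether the counting used strand, so any of its reads counted as WNT5A cannot be told apart.

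Of the 2 genes of ligand release 1 fell, beside 9.67% of all genes tested. PORCN, the acyltransferase whose product makes Wnt proteins competent for secretion, stood at 31.7, 29.8 and 32.9 CPM in received and 54.5, 44.2 and 42.9 CPM in not-received libraries. The groups did not overlap, and not-received replicate 1 was the highest. PORCN fell by 0.58 ± 0.09 on the log2 scale (adjusted p = 9.71e-04), that is 1.50-fold. WLS, the carrier of lipidated Wnt proteins, stood at 88.8, 87.3 and 90.0 CPM against 94.8, 93.9 and 93.6 CPM. Its groups did not overlap either, but the difference was small and was not called (log2 fold change -0.09 ± 0.06, adjusted p = 0.308).

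Of the 13 receptors 10 were tested, with 3 lower and 1 higher, beside 9.67% lower and 9.21% higher among all genes tested. The 3 that fell, FZD1, FZD2 and FZD7, form one sequence subfamily of the Frizzled receptors. FZD7 stood at 24.9, 25.4 and 27.5 CPM in received and 47.9, 40.3 and 42.1 CPM in not-received libraries. FZD1 stood at 28.8, 29.1 and 31.5 CPM against 50.7, 47.2 and 44.8 CPM. FZD2 stood at 35.3, 27.8 and 33.4 CPM against 43.7, 39.4 and 42.6 CPM. In each of the 3 the groups were apart. FZD7 fell by 0.74 ± 0.08 on the log2 scale (1.67-fold, adjusted p = 6.47e-05), FZD1 by 0.67 ± 0.08 (1.59-fold, adjusted p = 7.00e-05) and FZD2 by 0.38 ± 0.09 (1.30-fold, adjusted p = 0.0115). The FZD2 call was lost without received replicate 2, its lowest library (adjusted p = 0.0748). These receptors are paralogs, and the sources do not describe the treatment of reads that match more than 1 gene.

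None of the other 5 Frizzled genes was called by edgeR, DESeq2 or limma-voom, and 1 of them, FZD8, had an unadjusted p below 0.05. The edgeR share called over all genes tested was 18.9%, which gives few calls among 5 genes. FZD6 stood at 37.5 ± 1.15 and 38.5 ± 3.88 CPM and FZD3, its subfamily partner, at 5.46 ± 0.793 and 5.33 ± 0.339 CPM, with log2 fold changes of -0.04 ± 0.08 and 0.03 ± 0.16. FZD5 and FZD8, a further subfamily, did not overlap between groups: FZD5 stood at 7.91, 7.72 and 7.34 CPM against 8.69, 8.74 and 8.77 CPM, and FZD8 at 3.63, 2.90 and 4.50 CPM against 5.54, 4.84 and 4.84 CPM. Neither passed (log2 fold change -0.19 ± 0.12 and -0.46 ± 0.19, adjusted p = 0.279 and 0.107). These are 2 of 5 genes without overlap, close to the 39.0% of all genes tested. FZD4, at 2.10 ± 0.468 and 1.67 ± 0.494 CPM, had a log2 fold change of 0.32 ± 0.29. Its span overlaps PRSS23 (log2 fold change -0.41, adjusted p = 9.13e-04) in the RefSeq table, and FZD4 is reported as uncertain for that reason.

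RYK, a receptor with a Wnt-binding domain and an inactive kinase, went the other way from the called Frizzled genes. It stood at 72.2, 81.7 and 75.5 CPM in received and 63.5, 68.6 and 65.3 CPM in not-received libraries, without overlap. The increase was 1.16-fold (log2 fold change 0.21 ± 0.07, adjusted p = 0.0424). It was not called by limma-voom or when any library other than not-received replicate 2 was left out (highest adjusted p = 0.191). ROR1, a receptor tyrosine kinase of the WNT5A branch, was not called at 1.39 ± 0.337 and 1.73 ± 0.407 CPM (log2 fold change -0.34 ± 0.29), and ROR2 had a single count in all.

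**Figure D3:**
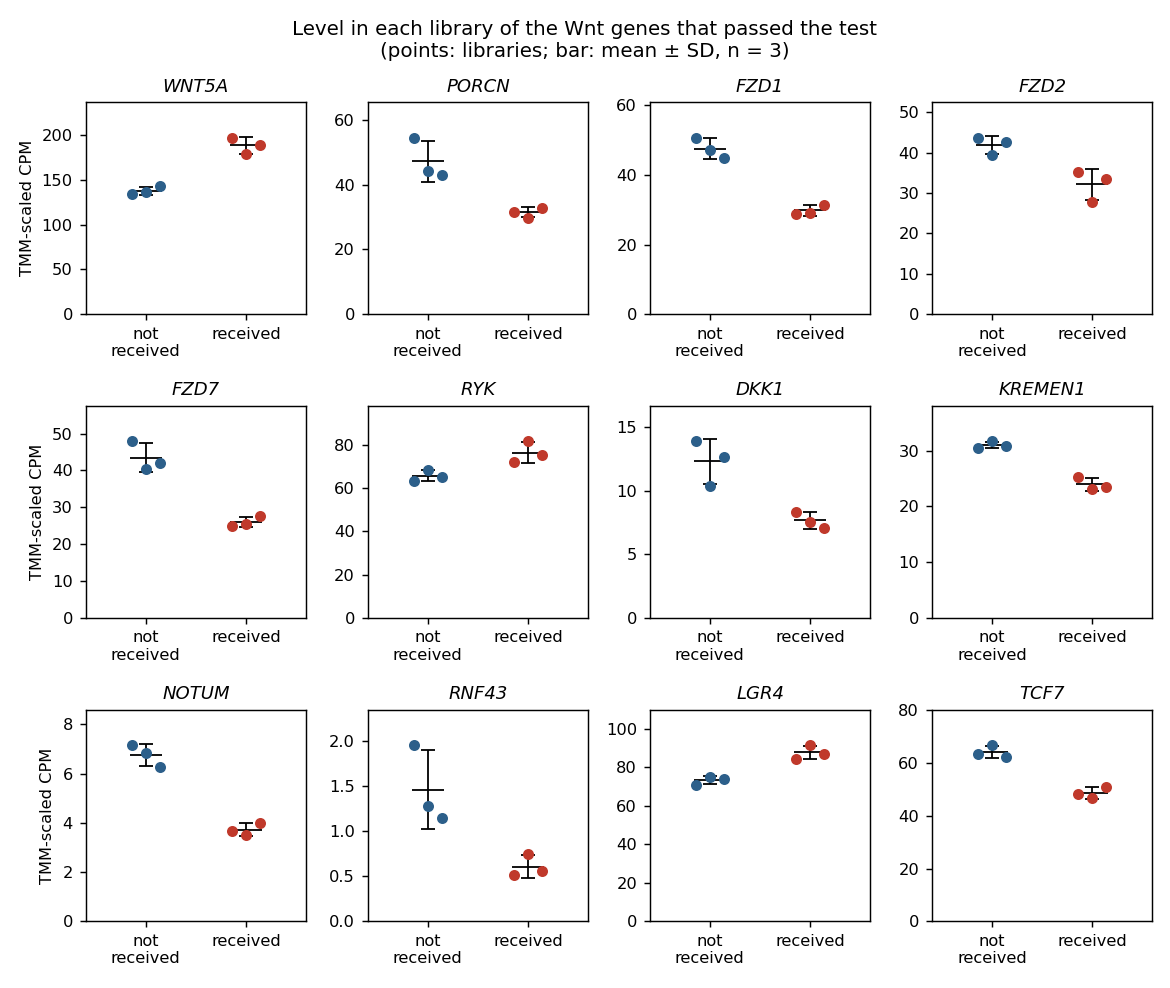
TMM-scaled CPM in each library of the 12 called Wnt genes, not received in blue and received in red, with the mean and SD (n = 3); each vertical axis starts at 0. In all 12 panels the groups are apart, with WNT5A, RYK and LGR4 higher in received cells and the other 9 genes lower.

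Of the 8 extracellular inhibitors 5 were tested, and 3 fell and 0 rose, beside 9.67% and 9.21% of all genes tested. Their median log2 fold change was -0.57, and none had a positive fold change at an unadjusted p below 0.05. NOTUM, a secreted enzyme that removes the lipid from Wnt proteins, stood at 3.68, 3.49 and 4.00 CPM in received and 7.17, 6.85 and 6.28 CPM in not-received libraries. DKK1, which blocks LRP5 and LRP6, stood at 8.37, 7.51 and 7.11 CPM against 13.9, 10.4 and 12.7 CPM. KREMEN1, a membrane partner of DKK1, stood at 25.3, 23.1 and 23.5 CPM against 30.5, 31.7 and 30.9 CPM. In all 3 every received library was below every not-received library. NOTUM fell by 0.86 ± 0.16 on the log2 scale (1.82-fold, adjusted p = 0.00196), DKK1 by 0.67 ± 0.13 (1.59-fold, adjusted p = 0.00369) and KREMEN1 by 0.38 ± 0.08 (1.30-fold, adjusted p = 0.00388). DKK3, a divergent member of the DKK family, stood at 1.23 ± 0.346 against 1.84 ± 0.143 CPM, without overlap between groups, and was not called (log2 fold change -0.57 ± 0.28, adjusted p = 0.168). SFRP4, a decoy that binds Wnt proteins, stayed below 1 CPM (log2 fold change -0.11 ± 0.43).

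Of the 4 regulators of receptor turnover 1 fell, 1 rose and 2 were not called. Among all genes tested 9.67% fell and 9.21% rose. RNF43 and ZNRF3 are paralogous ubiquitin ligases that remove Frizzled receptors from the surface. LGR4 and LGR5 bind R-spondins, which neutralise these ligases. RNF43 had 11, 14 and 10 counts with received mitochondria and 36, 58 and 24 counts without, or 0.512, 0.751 and 0.556 CPM against 1.96, 1.28 and 1.15 CPM. Without overlap between groups, it was the largest change among the 37 tested Wnt genes, a fall by 1.25 ± 0.33 on the log2 scale (2.38-fold, adjusted p = 0.0198), on the fewest counts of any called member. The call was lost with DESeq2 and without received replicate 1 or 3 or not-received replicate 1 (highest adjusted p with a library left out 0.0934). RNF43 overlaps TSPOAP1-AS1, which had 20 to 52 counts and a log2 fold change of -0.07 (adjusted p = 0.881), so reads of either cannot be told apart without strand. ZNRF3 was not called, with 16.5 ± 1.69 and 16.2 ± 1.15 CPM (log2 fold change 0.03 ± 0.10).

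LGR4 stood at 84.6, 91.7 and 86.9 CPM in received and 71.0, 75.1 and 74.0 CPM in not-received libraries, and the groups did not overlap. It rose 1.19-fold (log2 fold change 0.26 ± 0.06, adjusted p = 0.0116), a call lost without received replicate 2, its highest library (adjusted p = 0.0731). LGR5, a stem cell marker in several epithelia, was not called at 2.13 ± 0.246 and 2.43 ± 0.223 CPM (log2 fold change -0.19 ± 0.22). RSPO3, the only R-spondin gene with enough counts to test, had a log2 fold change of 0.12 ± 0.26 (adjusted p = 0.789).

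No cytoplasmic transducer was called by edgeR, DESeq2 or limma-voom, with 8 of 10 tested, and 2, DVL1 and APC, had an unadjusted p below 0.05. Over all genes tested edgeR called 18.9%, a share that gives few calls among 8 genes. CTNNB1, which encodes beta-catenin, stood at 295, 299 and 295 CPM in received and 276, 276 and 298 CPM in not-received libraries. These groups overlap, and the log2 fold change was 0.06 ± 0.06 (adjusted p = 0.449). AXIN2, the scaffold whose transcription is a common readout of beta-catenin activity, stood at 9.72, 8.15 and 8.28 CPM against 7.33, 9.76 and 7.91 CPM. Its groups overlap as well (log2 fold change 0.05 ± 0.14, adjusted p = 0.815). GSK3B and AXIN1 had log2 fold changes of 0.05 ± 0.06 and -0.08 ± 0.08, and DVL2 and DVL3 of -0.02 ± 0.06 and -0.12 ± 0.10. DVL1 and APC lay lower, at -0.16 ± 0.07 and -0.19 ± 0.09 (adjusted p = 0.109 and 0.140), and each was called in 1 of 14 alternative fits: DVL1 without not-received replicate 2 (adjusted p = 0.0309) and APC without not-received replicate 1 (adjusted p = 0.0372).

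Of the 4 transcription factors 3 were tested. TCF7 fell and the other 2 were not called, where 9.67% of all genes tested fell. TCF7, which encodes TCF-1, stood at 48.1, 46.9 and 51.0 CPM in received and 63.4, 66.9 and 62.3 CPM in not-received libraries, without overlap. It fell by 0.40 ± 0.07 on the log2 scale (1.32-fold, adjusted p = 0.00132). LEF1 stood at 15.4, 13.2 and 14.1 CPM against 13.9, 15.2 and 14.1 CPM, and TCF7L2 at 12.2, 10.6 and 12.7 CPM against 12.1, 13.9 and 11.4 CPM. Both pairs of groups overlap (log2 fold change -0.02 ± 0.10 and -0.08 ± 0.12). TCF7 overlaps VDAC1 in the RefSeq table. That neighbour had 8334 to 20566 counts a library, far more than TCF7, and a log2 fold change of 0.04 (adjusted p = 0.665). Any of its reads counted as TCF7 cannot be told apart, so the level and change of TCF7 are uncertain to that extent.

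The genes that are both members and textbook transcriptional outputs of beta-catenin did not move as a block. Of 9 such genes (AXIN2, NKD1, LEF1, TCF7, NOTUM, RNF43, ZNRF3, LGR5 and DKK1, a grouping made after the values were seen) 8 were tested, and 4 fell, 0 rose and 4 were not called. Of all genes tested 9.67% fell. The median log2 fold change of the 8 was -0.30. NOTUM, RNF43, DKK1 and TCF7 account for the falls, while the log2 fold changes of the uncalled genes were 0.05 for AXIN2, -0.02 for LEF1, 0.03 for ZNRF3 and -0.19 for LGR5.

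Ratios of counts within a library do not depend on scaling between libraries, and 5 pairs were formed after the values were seen, as descriptions with no test. Per WNT7B count there were 1.04, 0.978 and 0.835 WNT5A counts in the received and 0.637, 0.724 and 0.833 in the not-received libraries, so received replicate 3 was almost level with not-received replicate 3. Per FZD6 count there were 0.691 ± 0.0255 FZD7 counts with received mitochondria and 1.14 ± 0.190 without. TCF7 counts per LEF1 count were 3.43 ± 0.274 against 4.47 ± 0.0846. For every 100 ZNRF3 counts there were 3.72 ± 1.06 against 9.04 ± 2.67 RNF43 counts, and for every 100 WNT5A counts 4.07 ± 0.261 against 8.96 ± 1.41 DKK1 counts (SD, n = 3 throughout). None of the 5 ratios overlapped between groups. Each pair holds a called gene, so the choice of pairs favoured such separation. Over the 8 Frizzled genes, FZD1, FZD2 and FZD7 together took 70.1%, 66.7% and 69.1% of the summed CPM per kb in received and 77%, 74.5% and 73.5% in not-received libraries. Their summed level was 87.9 ± 5.09 against 133 ± 8.20 CPM, while the other 5 summed to 56.4 ± 1.56 and 59.3 ± 2.82 CPM, with overlap. This split is also that between called and uncalled Frizzled genes, so the shares and sums restate the calls.

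**Figure D4:**
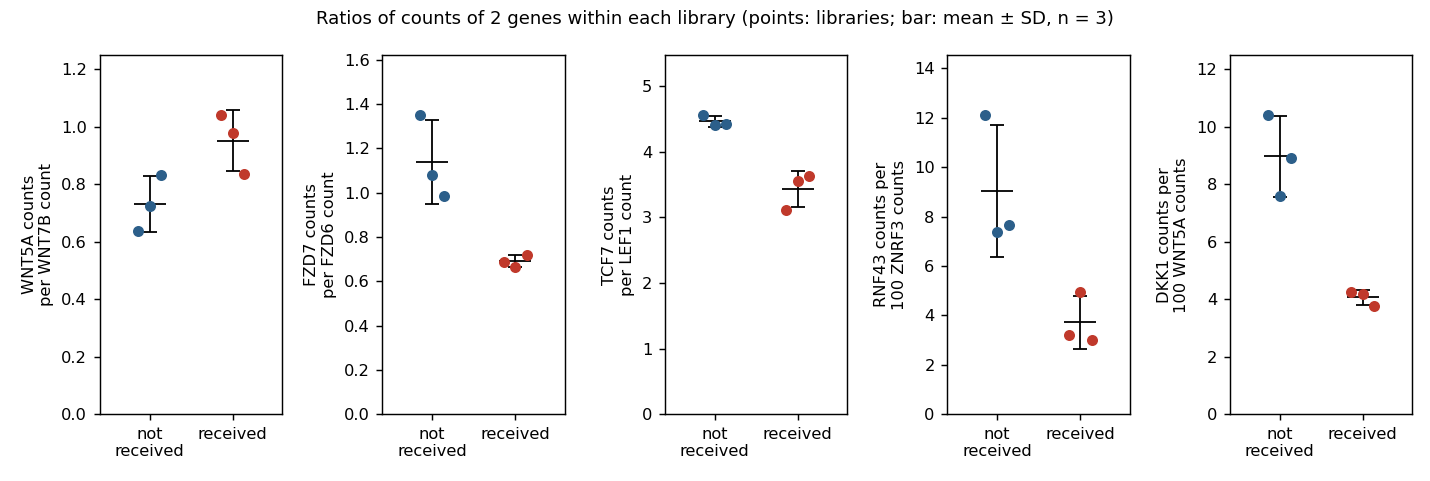
Ratios of the counts of 2 Wnt genes within each library, not received in blue and received in red, with mean and SD (n = 3); each axis starts at 0 and the ratio is named on it. The WNT5A to WNT7B ratio is higher in received libraries by a narrow margin (0.835 against 0.833 at the nearest libraries), and the other 4 ratios are lower.

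The rest of the pathway was read from 3 further lists. Of 66 other genes of ligand reception and beta-catenin signalling 42 were tested, 5 fell and 0 rose, or 11.9% called against 18.9% of all genes. By DESeq2 1 rose and by limma-voom 0, and 1 gene with a positive fold change had an unadjusted p below 0.05 in edgeR. PTK7, a pseudokinase co-receptor for Wnt proteins, stood at 55.8 ± 1.32 CPM in received and 72.7 ± 4.95 CPM in not-received cells, a fall by 0.39 ± 0.07 on the log2 scale (adjusted p = 0.00196). MESD, the chaperone that folds LRP5 and LRP6, fell by 0.24 ± 0.05, the coactivator CREBBP by 0.41 ± 0.11 and SENP2, a SUMO protease, by 0.22 ± 0.07. The fifth, CSNK1D, lay at the threshold (log2 fold change -0.18 ± 0.06, adjusted p = 0.0496). Of these 5 calls only that of PTK7 held in all 14 alternative fits. The count of 5 was 3 with scaling by library size alone or without not-received replicate 1, and 1, 1 and 2 without received replicate 1, 2 and 3.

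Of 38 genes of the planar polarity and calcium branches, which WNT5A can signal through, 30 were tested, 4 rose, 3 fell and 23 were not called. The share called was 23.3%, close to the 18.9% of all genes, and the median log2 fold change was -0.01. NFATC2, a calcium-regulated transcription factor, stood at 5.16, 6.28 and 4.39 CPM in received and 1.79, 2.27 and 1.44 CPM in not-received libraries. That rise, without overlap, was the largest of the list (log2 fold change 1.50 ± 0.23, adjusted p = 5.80e-04). The planar polarity effectors FUZ (0.51 ± 0.11) and INTU (0.44 ± 0.10) rose, as did DAAM1, a formin that links Dishevelled to RHOA (0.34 ± 0.10). The protein kinase C gene PRKCA fell by 0.51 ± 0.08, the core polarity gene VANGL1 by 0.41 ± 0.07 and the phospholipase gene PLCB3 by 0.28 ± 0.07. The calls of NFATC2, PRKCA and VANGL1 held in all 14 alternative fits. Without received replicate 2 the count of 4 that rose was 1.

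Among 25 genes known elsewhere as targets of beta-catenin 18 were tested, 1 rose and 5 fell, with a median log2 fold change of -0.07. That is 33.3% called, beside 18.9% of all genes (9.21% higher and 9.67% lower). The groups were apart in 10 of the 18, 4 higher and 6 lower, where 39.0% of all genes tested did not overlap. This list too was chosen with earlier results of these data known. ID2, an inhibitor of basic helix-loop-helix factors, stood at 19.6, 17.6 and 18.1 CPM in received and 43.5, 38.9 and 38.7 CPM in not-received libraries, and fell by 1.12 ± 0.08 on the log2 scale (adjusted p = 1.53e-06). The adhesion molecule gene L1CAM fell by 0.68 ± 0.10, cyclin D1 (CCND1) by 0.29 ± 0.06, the nuclear receptor gene PPARD by 0.24 ± 0.07 and CD44 by 0.23 ± 0.05, whereas SOX9, which is also on the astrocyte list, rose (0.31 ± 0.08). ID2 and L1CAM were called in all 14 alternative fits. SP5 and TNFRSF19, which respond to beta-catenin in many cell types, had log2 fold changes of -0.60 ± 0.40 and -0.01 ± 0.18 and were not called. MYC lay higher (0.18 ± 0.06) and was not called either (adjusted p = 0.0561), but it was called in 3 of the 14 alternative fits. The count of 5 was 3, 2 and 3 without received replicate 1, 2 and 3, and the 1 that rose was 0 without received replicate 1 or 3.

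**Figure D5:**
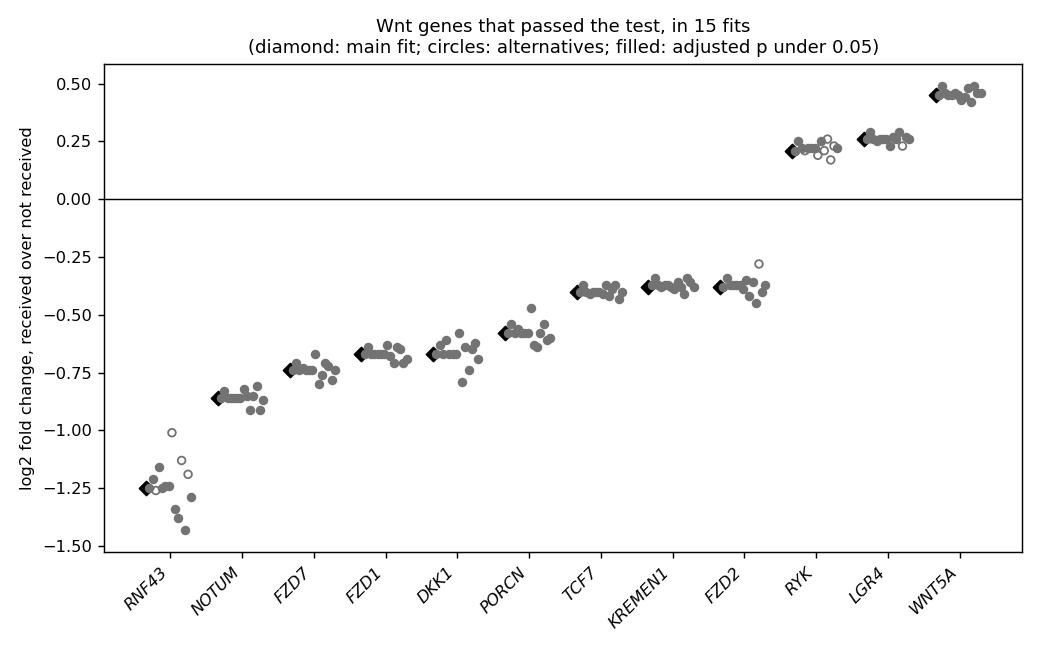
Log2 fold change (received over not received) of the 12 called Wnt genes in 15 fits, the reported one (diamond) and 14 alternatives (circles), filled where the adjusted p was under 0.05. No gene changes sign; WNT5A, PORCN, FZD1, FZD7, DKK1, KREMEN1, NOTUM and TCF7 are filled throughout, and RYK has the most open points.

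Across the alternatives 8 of the 12 calls held in every fit: WNT5A, PORCN, FZD1, FZD7, DKK1, KREMEN1, NOTUM and TCF7. Over the 6 fits with 1 library left out, the log2 fold change of WNT5A ran from 0.42 to 0.49, that of FZD7 from -0.80 to -0.67, that of NOTUM from -0.91 to -0.81 and that of DKK1 from -0.79 to -0.58. The count of genes that rose was 1, WNT5A, without received replicate 2.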

How the data were processed

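The authors deposited 1 table of raw read counts per library, whole numbers per gene symbol with no normalization. Per the submitters' processing notes, DESeq and R 3.6.1 were used. Aligner, counter, build and annotation were not given in the sources used here. Coordinates come from the RefSeq promoter table alone. Libraries were made from poly(A)-selected RNA and sequenced as paired ends, per the labels' protocols. Titles gave each library its group. Genes kept by filterByExpr (14100) were scaled with TMM factors and tested over all 6 libraries with glmQLFit (robust) and glmQLFTest of edgeR 4.0.16 (R 4.3.3), with group as the single term. Each SE was derived from the fold change and its F statistic. The steps were tested on simulated data. CPM are TMM-scaled. The alternatives were RLE factors, library size alone, DESeq2 1.42.0, limma-voom (limma 3.58.1), no low-count filter, at least 1 CPM in 3 libraries, the replicate number as a block, the deepest library thinned to 18549585 counts, and each library left out in turn. The members and gene lists were chosen with earlier results of these data known. Values per library are given for called members, CTNNB1, AXIN2, LEF1, TCF7L2, DKK1, WNT5A, FZD7, LRP6 and the member of each role with the highest CPM; from the 3 further lists, up to 4 called genes per direction with the largest change and an average log2 CPM of at least 1. Other genes, such as LRP5, FZD5, FZD8, SCRIB, CSNK1D, CD44, SP5, TNFRSF19, RSPO3 and the glioblastoma line genes, were named after their values were seen.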

Additional observations from a re-analysis of the deposited data

How the results depend on the processing

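The count of Wnt genes called was 3 higher and 9 lower, and with 1 library left out it ran from 1 to 3 and from 8 to 10. No called gene changed sign in any fit, and the scaling of the libraries left all 12 calls in place, although library size alone raised the share of higher calls over all genes from 48.8% to 60.3%. The other genes of the pathway gave 1 higher with library size alone, DESeq2, the filter of at least 1 CPM in 3 libraries or the replicate block in place of 0 (0 to 1 with a library left out), and 3 lower with library size alone in place of 5 (1 to 6). Planar polarity and calcium genes gave 5 lower without a low-count filter in place of 3 (2 to 4), and 1 to 6 in place of 4 higher. Targets of beta-catenin gave 3 higher with library size alone and 2 with the filter of at least 1 CPM in place of 1 (0 to 2), and 2 to 5 lower. Over all genes, 604 to 1356 were higher and 691 to 1579 lower with a library left out, against 1298 and 1364, and 2084 were lower without a low-count filter. The difference in summed marker level (received minus not received) ran from 46.9 to 71.7 CPM for astrocyte, 96.1 to 116 for macrophage, -0.408 to 0.0346 for lymphocyte, 1.89 to 5.81 for endothelial and -131 to 164 for glioblastoma line lists. The causes of these shifts were not tested.

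Deviations from the group mean had correlations of -0.200, -0.0680 and 0.0535 between same-numbered libraries of the groups. With 3 libraries a group, such values cannot decide whether the numbers mark pairs. With the replicate number as a block 3 Wnt genes were higher and 9 lower, as without it, and over all genes 1252 were higher and 1384 lower. Of 25 tested Wnt genes that were not called, 12 changed sign in at least 1 fit. RNF43 was called on 10 to 58 counts a library, so counting error is large for it, and LRP5 and LRP6, at 2 to 14 counts, were not tested.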
